A study of Drosophila melanogaster with 12 samples.

Results

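The cytosolic ribosomal protein genes are 92 of the 15904 gene rows measured in eye discs of wandering Drosophila larvae, the last larval stage, 38 of the small and 54 of the large ribosomal subunit. They were chosen by symbol alone, as rows whose gene names hold a symbol that starts with RpL or RpS and a digit, or with RpLP, and the 73 rows of mitochondrial ribosomal proteins were left out. Symbols ending in a lower case letter name copies of a gene, and those ending in "-like" name related genes. Both kinds were treated as pairs, and the less abundant row of a pair is called a second copy here. Of the 92 rows 14 were second copies in this sense, which left 78 rows, 31 of the small and 47 of the large subunit. RpL37a and RpL37b are copies of one gene, and RpL37A is a different protein.

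Total RNA depleted of ribosomal RNA was sequenced from 4 groups of 3 samples, each made from 30 pairs of discs. Ras + EP3037 discs carried EP3037 and UAS-RasV12, Ras + hsrω RNAi discs carried UAS-hsrωRNAi and UAS-RasV12, Ras discs carried UAS-RasV12 and dco2, and control discs carried neither RasV12 nor a change at hsrω but had dco2 over a normal chromosome. In lists of 4 values, EP3037 and RNAi alone stand for the Ras + EP3037 and Ras + hsrω RNAi discs. All groups were in a w1118 background with sev-GAL4 and UAS-GFP. RasV12 is an activated form of the GTPase Ras, Hsromega (hsrω) is a long non-coding RNA gene, EP3037 is an insertion at that gene meant to raise its level, and dco (discs overgrown) encodes a casein kinase. The allele dco2 was present in Ras and control discs and is not in the labels of the other groups, so it cannot be told apart from the changes at hsrω. The sev-GAL4 driver is active in a subset of eye disc cells, whereas whole discs were measured.

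Each ribosome is built from ribosomal RNA and one copy of most ribosomal proteins, so cells make these proteins in nearly equal amounts and their mRNAs are among the most abundant in growing tissue. The mRNAs are short, and their translation responds to growth signalling through TOR and its targets. In flies, loss of one copy of many of these genes gives the Minute phenotype, with slow growth, short bristles and elimination of the mutant cells next to normal neighbours in imaginal discs.

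The authors deposited 1 FPKM value (fragments per length of transcript, scaled to the mapped total) for each gene and group, pooled over its samples, so the levels below have no SD and the read depth is unknown. Their Cuffdiff test supplies the p-values, and a gene was called when the q-value in the authors' deposited table was at or below 0.05. Nothing in the labels states that the 3 samples of a group are from independent crosses, and the p-values thus measure the spread between these samples only, which may be technical. The Hsromega row read 606 FPKM in Ras + EP3037 discs, 398 in Ras + hsrω RNAi discs, 389 in Ras discs and 543 in control discs, and was called in none of the 6 pairs of groups. Ras85D, whose row can also collect transgene reads, read 142, 151 and 121 FPKM in the Ras + EP3037, Ras + hsrω RNAi and Ras discs, against 74.4 FPKM in control discs. All 10 eye disc marker genes were at 1 FPKM or more in every group, with summed levels of 468 (EP3037), 557 (RNAi), 474 (Ras) and 460 (control) FPKM.

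Ribosomal protein mRNAs made up a large part of the disc transcriptome in every group. The 92 rows held 34.8% of the FPKM of all protein-coding rows in Ras + EP3037 discs, 32.6% in Ras + hsrω RNAi discs, 36.1% in Ras discs and 34.5% in control discs. Of all FPKM, non-coding RNAs included, they held 19.9% (EP3037), 18.3% (RNAi), 17.4% (Ras) and 19.9% (control). Ras discs thus had the highest of the 4 shares on one scale and the lowest on the other. The low place of Ras discs depended on very short rows. Without rows spanning under 200 nt the shares of all FPKM were 20.7% (EP3037), 18.9% (RNAi), 19.2% (Ras) and 20.4% (control). Between 69 and 72 of the 100 most abundant protein-coding rows of a group were ribosomal protein rows. The median of the 78 rows was 1606 FPKM in Ras + EP3037 discs, 1493 in Ras + hsrω RNAi discs, 1815 in Ras discs and 1606 in control discs. In each group 82 of the 92 rows stood at 100 FPKM or more.

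**Figure D1:**
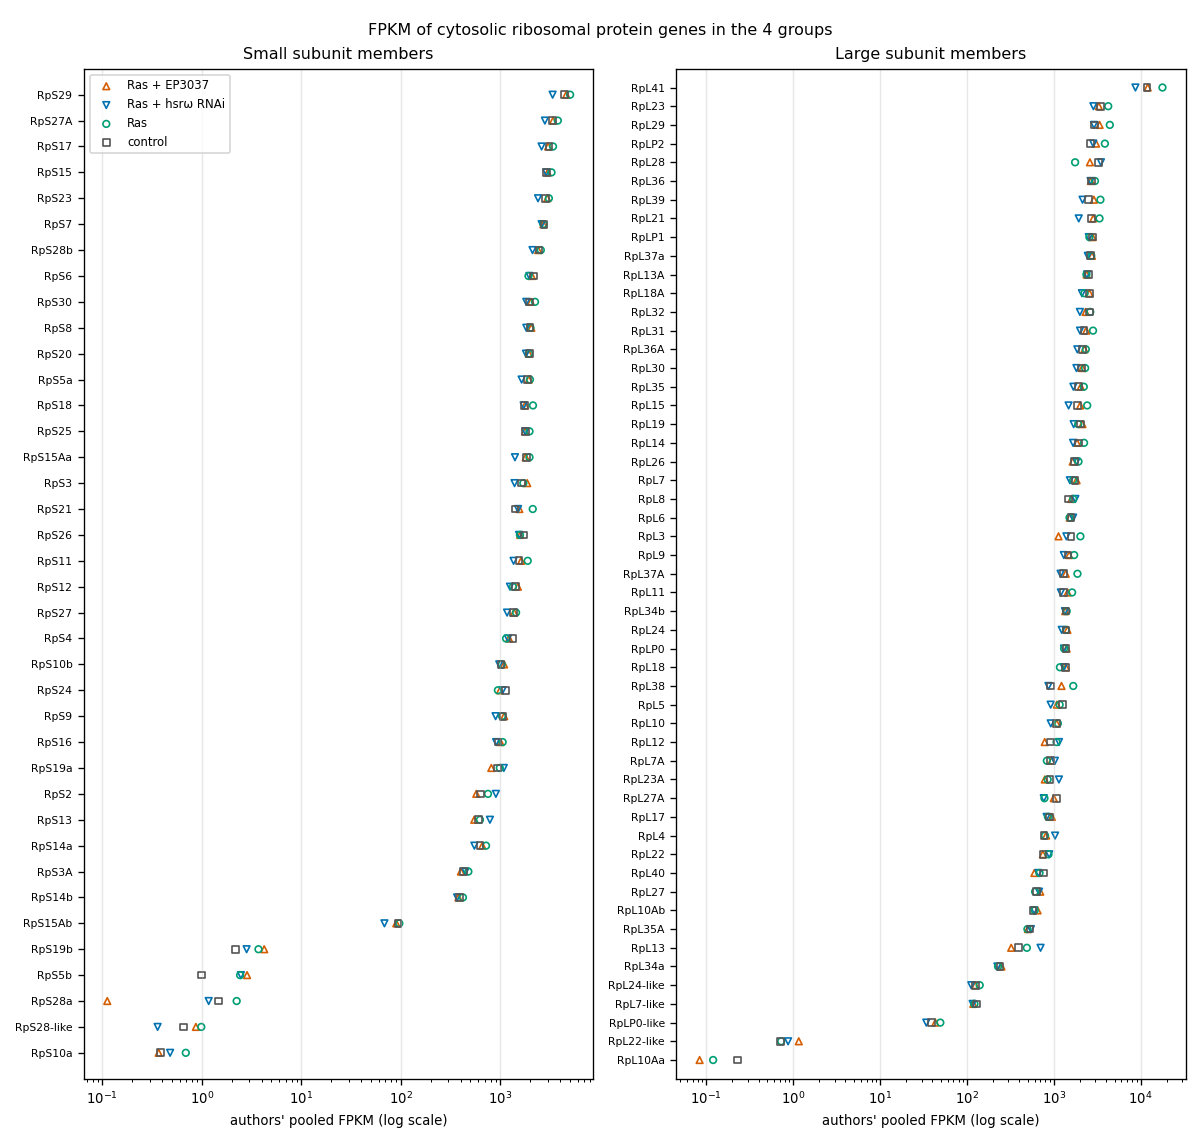
Pooled FPKM (horizontal log axis) of each small subunit gene (left) and large subunit gene (right) in Ras + EP3037, Ras + hsrω RNAi, Ras and control discs, 1 marker per group, ordered by mean level; RpL37b, at 0 in every group, is not drawn, and no marker is drawn for a group at 0. The 78 rows left after the second copies form one band with means between 437 and 12580 FPKM, and second copies reach down to below 1 FPKM.

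FPKM is a level per length, so genes can be compared on it. RpL41, the smallest ribosomal protein, with a coding length of 75 nt, was the most abundant member at 12044 FPKM in Ras + EP3037 discs, 8697 in Ras + hsrω RNAi discs, 17802 in Ras discs and 11776 in control discs. Without it the other rows held 32.9% in Ras + EP3037 discs, 31.1% in Ras + hsrω RNAi discs, 33.5% in Ras discs and 32.7% in control discs, as shares of all protein-coding FPKM. RpS29, a small zinc-binding protein of the small subunit, followed with 4597 (EP3037), 3351 (RNAi), 5022 (Ras) and 4444 (control) FPKM. RpL23, RpL29, RpS27A and RpLP2 completed the 6 most abundant members, each between 2641 and 4410 FPKM in every group. FPKM of very short mRNAs depends on how the length correction was made.

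At the other end, the least abundant member that was not a second copy was RpS3A of the small subunit, the only member on chromosome 4, at 401 FPKM in Ras + EP3037 discs, 445 in Ras + hsrω RNAi discs, 477 in Ras discs and 423 in control discs. RpL13, RpL35A, RpL10Ab, RpS14a and RpS13 followed with means between 477 and 640 FPKM. RpS14a shares its protein with RpS14b, and the pair is taken up among the copies. Means of the 78 rows thus spanned 437 to 12580 FPKM although their proteins are present in nearly equal amounts in a ribosome.

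Levels of a member varied little between groups, but no less than those of other abundant protein-coding rows. For the 78 rows the ratio of the highest to the lowest group ranged from 1.05 to 2.18 with a median of 1.25, against a median of 1.20 for 453 other protein-coding rows at 100 FPKM or more. Of the 78, 29 had a ratio below 1.2 and 12 a ratio of 1.5 or more, against 221 and 55 of the 453 other rows. RpL13A, RpL34b and RpS7 were the steadiest, each with a ratio of 1.05. RpS7, for example, read 2713 FPKM in Ras + EP3037 discs, 2602 in Ras + hsrω RNAi discs, 2711 in Ras discs and 2736 in control discs. RpL32, often used as a reference gene in fly quantitative PCR, read 2321 (EP3037), 1996 (RNAi), 2626 (Ras) and 2555 (control) FPKM, a ratio of 1.32.

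In the 6 pairs of groups, at most 1 of the 90 tested members was called. Ras against control discs had 1 call, a fall of RpL28, where 0.773% of all tested rows were called (0.418% higher and 0.355% lower). Ras + hsrω RNAi against control discs had 1 call, a rise of RpL13, where 1.72% of all rows were called (1.11% higher and 0.603% lower). Ras + EP3037 against Ras + hsrω RNAi discs had 1 call, a fall of RpL13, where 1.74% were called (0.219% higher and 1.52% lower). No member was called in Ras + EP3037 against control discs, where 0.643% of rows were called (0.254% higher and 0.39% lower). None was called in Ras + hsrω RNAi against Ras discs, where 0.743% were called (0.174% higher and 0.569% lower), or in Ras + EP3037 against Ras discs, where 0.786% were called (0.181% higher and 0.606% lower). One call of 90 is 1.11%, a share near these backgrounds. The 6 pairs share groups, so their results are not independent of each other.

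At an unadjusted p at or below 0.05 in the authors' deposited table between 1 and 7 members were counted in a pair. In Ras against control discs it was 4 of 90 members, 4.44% against 4.63% of all rows, and in Ras + hsrω RNAi against control discs 5, 5.56% against 8.74%. In Ras + EP3037 against control discs it was 2, 2.22% against 3.52%, and in Ras + EP3037 against Ras discs 1, 1.11% against 5.89%. In Ras + hsrω RNAi against Ras discs it was 7, 7.78% against 5.2%, of which 6 were lower in the RNAi discs, and in Ras + EP3037 against Ras + hsrω RNAi discs it was 7, 7.78% against 9.43%.

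As a family the members leaned together by small amounts. In Ras against control discs 63 members read higher and 27 lower, with a median log2 fold change of 0.11 against 0.05 over all tested rows. The share that read higher was 70% of members, 57.9% of all tested rows and 65.9% of other rows with a mean of 100 FPKM or more. In Ras + hsrω RNAi against control discs 23 read higher and 67 lower, with a median of -0.12 against -0.004 over all rows. In Ras + hsrω RNAi against Ras discs 21 read higher and 69 lower, with a median of -0.17 against -0.02. Ras + EP3037 discs lay between Ras and Ras + hsrω RNAi discs: 50 members read higher and 40 lower than in control discs (median 0.02 against -0.01 over all rows), 32 higher and 58 lower than in Ras discs (median -0.11 against -0.05), and 68 higher and 22 lower than in Ras + hsrω RNAi discs (median 0.16 against 0.02). The 3 shares were 55.6%, 48.9% and 61.6% against control discs and 35.6%, 43.3% and 38.9% against Ras discs. Against Ras + hsrω RNAi discs they were 75.6%, 52.4% and 61.3%. The medians are descriptions without a test, and all 6 came to between -0.03 and -0.01 after a trend fitted over all rows between fold change and transcript length was subtracted, which turned the sign in Ras and Ras + EP3037 against control discs and in Ras + EP3037 against Ras + hsrω RNAi discs. A trend fitted with mean FPKM in place of length turned the sign in Ras against control discs (-0.08), Ras + EP3037 against control discs (-0.02), Ras + hsrω RNAi against Ras discs (0.02) and Ras + EP3037 against Ras discs (0.04). In bulk RNA, fewer cells of a type and less RNA per cell cannot be told apart.

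**Figure D2:**
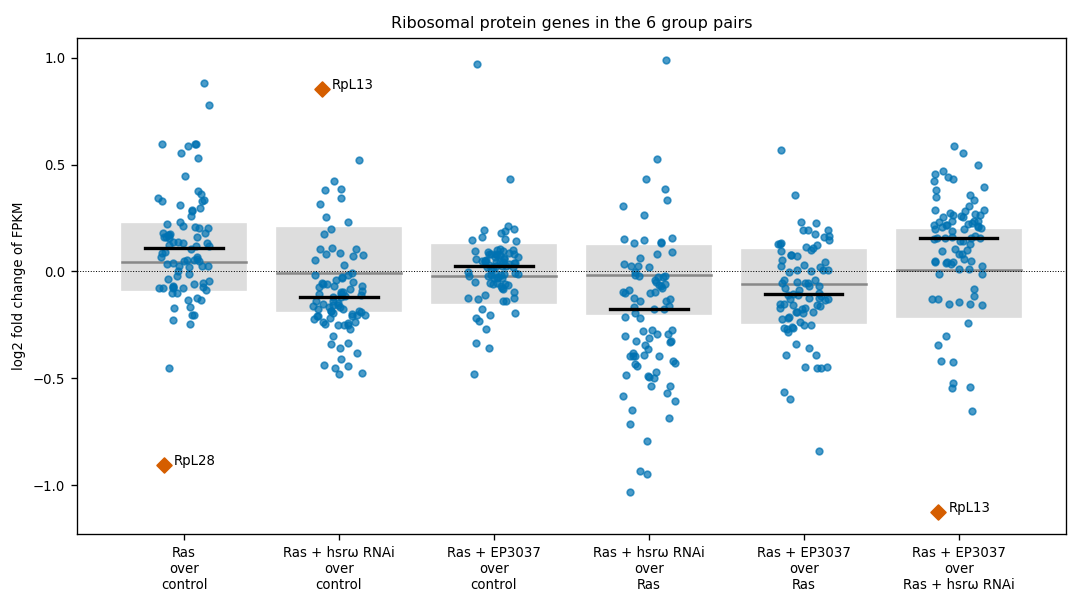
Log2 fold change of FPKM (vertical axis) in the 6 pairs of groups, with 1 point per ribosomal protein gene at 1 FPKM or more in both groups, the median of all 90 tested members as a black line, and the quartiles (grey box) and median (grey line) of all tested rows at that level. The member medians run between -0.17 and 0.16 before any correction; a trend with length turns the sign of 3 of them and one with mean FPKM that of 4, and the 3 calls are marked as diamonds.

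Mitochondrial ribosomal proteins, which serve the separate ribosome of that organelle, leaned the same way. Over 73 rows their medians were 0.14 in Ras against control discs, -0.17 in Ras + hsrω RNAi against control discs, -0.22 in Ras + hsrω RNAi against Ras discs and 0.19 in Ras + EP3037 against Ras + hsrω RNAi discs. Other rows with a mean of 100 FPKM or more gave medians of 0.10, -0.04, -0.12 and 0.07 in these pairs. The lean was thus not particular to cytosolic ribosomal proteins.

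Both subunits shared the lean. In Ras + hsrω RNAi against Ras discs 31 of 38 small subunit rows read lower (median -0.25), and 38 of 52 large subunit rows read lower (median -0.13). In Ras against control discs 30 of 38 small subunit rows read higher (median 0.12), and 33 of 52 large subunit rows (median 0.06). Neither difference between subunits was tested.

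Ordered by group, 39 of the 78 rows (50%) were highest in Ras discs and 51 (65.4%) were lowest in Ras + hsrω RNAi discs. The shares were 35.1% and 53.2% of the 453 other protein-coding rows at 100 FPKM or more. Highest in Ras and lowest in Ras + hsrω RNAi discs were 33 of the 78 rows, 42.3%. This order was found in 25.2% of the 453 rows and 12.6% of 7983 at 1 FPKM or more. Among other protein-coding rows with transcripts no longer than the members' median of 893 nt, 359 of 936 had this order, 38.4%. Of the 39 members that short, 26 had it, 66.7%. Of the 936 short rows 55.2% were highest in Ras discs and 57.2% lowest in Ras + hsrω RNAi discs, and of the 39 members 74.4% and 79.5%. Control discs were the highest group for 12 of the 78 rows (15.4%, against 16.3% of the 453) and the lowest for 5 (6.41% against 15.9%). Ras + EP3037 discs were the highest for 14 (17.9% against 26.7%) and the lowest for 12 (15.4% against 17.2%).

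The fold change of a member varied with its length and with its mean level. Split by coding length, the 26 shortest members (75 to 405 nt) had a median log2 fold change of -0.33 in Ras + hsrω RNAi against Ras discs, the 26 of middle length (417 to 564 nt) -0.13 and the 26 longest (570 to 1248 nt) -0.04. In Ras against control discs the medians were 0.13, 0.09 and 0.03, and in Ras + EP3037 against Ras + hsrω RNAi discs 0.19, 0.18 and 0.07. Over the 78 rows Spearman's rank correlation between log2 fold change and coding length was 0.46, -0.28 and -0.32 in these pairs. With mean FPKM in place of coding length the correlation was -0.53, 0.24 and 0.41. The points share the same pooled libraries, and length also enters FPKM.

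**Figure D3:**
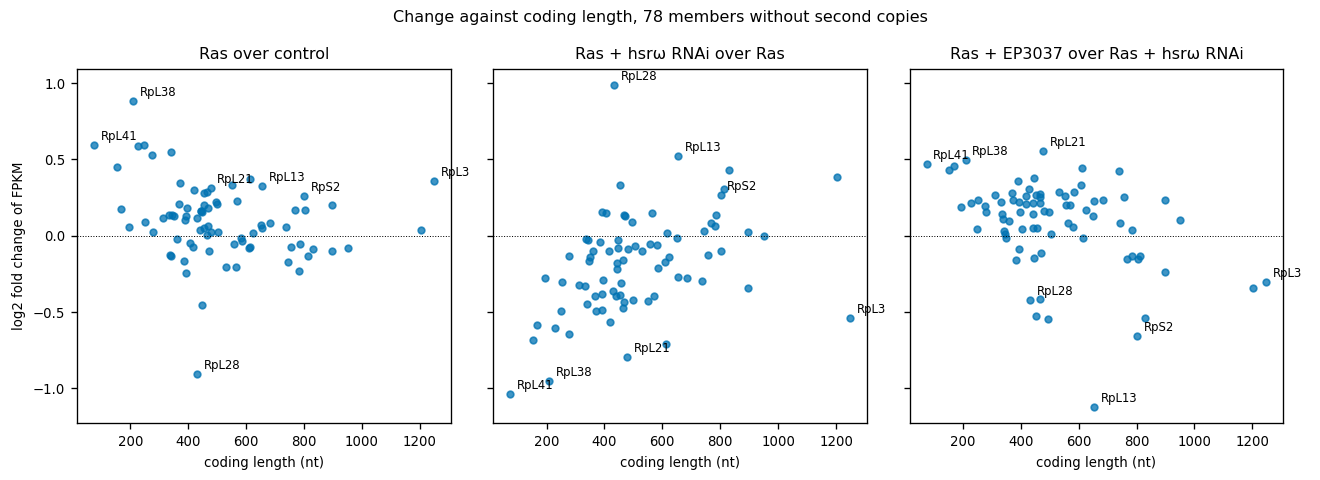
Log2 fold change of FPKM (vertical axis) against coding length in nt (horizontal axis) for the 78 ribosomal protein genes left after second copies, in Ras over control, Ras + hsrω RNAi over Ras, and Ras + EP3037 over Ras + hsrω RNAi discs; each point is 1 gene. RpL41 and RpL38 mark the short end, and RpL28 and RpL13 lie away from the other genes of their length.

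Short mRNAs of other kinds leaned alike, with length here taken over the transcript and not the coding sequence. Other protein-coding rows at 1 FPKM or more with transcripts of 288 to 893 nt had a median of -0.31 in Ras + hsrω RNAi against Ras discs (965 rows), where the shorter 39 of the 78 members had -0.33. In Ras against control discs the values were 0.19 for 963 other short rows and 0.14 for the 39 members, and in Ras + EP3037 against Ras + hsrω RNAi discs 0.20 for 977 rows and 0.21 for the members. Over all lengths the relation was not alike in every pair. Spearman's correlation with transcript length in Ras + hsrω RNAi against Ras discs was 0.41 for the 78 members and 0.45 for other protein-coding rows. It was -0.29 and -0.02 in Ras against control discs, and 0.26 and -0.06 in Ras + EP3037 against Ras discs.

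RpL13, a large subunit protein, had the largest ratio between groups of the 78 rows. It moved against the family in the pairs with Ras + hsrω RNAi discs, but with it in Ras against control and Ras + EP3037 against Ras discs. The RpL13 gene (FBgn0011272) spans chromosome 2L from 9967313 to 9968645 on the plus strand in dm6 and overlaps no other measured row. It read 323 FPKM in Ras + EP3037 discs, 704 in Ras + hsrω RNAi discs, 490 in Ras discs and 390 in control discs. It was thus highest in the RNAi discs and lowest in the EP3037 discs, with Ras and control discs between them. It rose 1.81-fold in Ras + hsrω RNAi over control discs (log2 0.85, q = 0.0240 in the authors' deposited table) and was 2.18-fold lower in Ras + EP3037 than in Ras + hsrω RNAi discs (log2 -1.12, q = 0.00789 in the authors' deposited table). Against Ras discs neither change was called: the log2 fold change was 0.52 in Ras + hsrω RNAi discs (p = 0.0190, q = 0.505 in the authors' deposited table) and -0.60 in Ras + EP3037 discs (p = 0.00590, q = 0.258 in the authors' deposited table).

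RpL28, also of the large subunit, was the call in Ras against control discs. Its row also names snoRNA:Or-CD11a and snoRNA:Or-CD11b, and the gene, on chromosome 3L from 3220911 to 3222960 on the minus strand, holds 5 annotated snoRNA genes (small RNAs that guide the modification of ribosomal RNA), so its FPKM cannot be assigned to the mRNA alone. It read 2604 FPKM in Ras + EP3037 discs, 3487 in Ras + hsrω RNAi discs, 1758 in Ras discs and 3287 in control discs. Ras discs were the low group, and it fell 1.87-fold there relative to control discs (log2 -0.90, q = 0.00789 in the authors' deposited table). Relative to Ras discs it read 0.99 log2 units higher in Ras + hsrω RNAi discs (p = 0.0554 in the authors' deposited table) and 0.57 higher in Ras + EP3037 discs (p = 0.168 in the authors' deposited table), neither of them called.

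RpS2, known in flies as string of pearls for its oogenesis phenotype, followed the order of RpL13. Its gene lies on chromosome 2L from 9896265 to 9897552, on the same arm as RpL13, and overlaps no other row. It read 573 FPKM in Ras + EP3037 discs, 902 in Ras + hsrω RNAi discs, 751 in Ras discs and 627 in control discs. The log2 fold change was -0.65 in Ras + EP3037 against Ras + hsrω RNAi discs (p = 0.00495, q = 0.230 in the authors' deposited table) and 0.52 in Ras + hsrω RNAi against control discs (p = 0.0242, q = 0.566 in the authors' deposited table).

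In all, 13 of the 78 rows were highest in Ras + hsrω RNAi discs, and RpL13, RpS2, RpS13, RpL12, RpL23A, RpS19a and RpL22 of these were lowest in Ras + EP3037 discs. The 13 rows were 16.7%, against 21.9% of the 453 other protein-coding rows at 100 FPKM or more. Those also lowest in Ras + EP3037 discs were 8.97%, against 10.6% of the 453, so neither share was above that of other abundant rows. RpS13, a small subunit protein, read 547 FPKM in Ras + EP3037 discs, 786 in Ras + hsrω RNAi discs, 623 in Ras discs and 602 in control discs (log2 -0.52 for the first over the second, p = 0.0125 and q = 0.398 in the authors' deposited table). RpL23A, whose fly protein carries a histone H1-like extension, read 787 (EP3037), 1146 (RNAi), 850 (Ras) and 902 (control) FPKM (log2 -0.54, p = 0.0231 and q = 0.554 in the authors' deposited table), and its row also names the snoRNA host gene Uhg7. RpL22, which has a similar extension, differed less, at 748 (EP3037), 884 (RNAi), 867 (Ras) and 753 (control) FPKM. RpL12 and RpL39 lie tail to tail on opposite strands, and the RNAi discs were the highest group for one and the lowest for the other: RpL12, a protein at the base of the stalk, read 786 (EP3037), 1147 (RNAi), 1075 (Ras) and 922 (control) FPKM, and RpL39, a short protein of the peptide exit tunnel, 2892 (EP3037), 2141 (RNAi), 3439 (Ras) and 2520 (control) FPKM.

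Several members with short coding sequences were highest in Ras discs, though the RpL38 transcript, at 1013 nt, was longer than the members' median of 893 nt. RpL38, a large subunit protein that in mice is needed for the translation of Hox mRNAs, read 1225 FPKM in Ras + EP3037 discs, 867 in Ras + hsrω RNAi discs, 1674 in Ras discs and 909 in control discs. Its log2 fold change of -0.95 in Ras + hsrω RNAi against Ras discs had p = 0.00145 and q = 0.102, and that of 0.88 in Ras against control discs p = 0.00610 and q = 0.264, both in the authors' deposited table. RpL41 differed by -1.03 in Ras + hsrω RNAi against Ras discs (p = 0.0514 in the authors' deposited table), a 2.05-fold lower level, and by 0.60 in Ras against control discs (p = 0.222 in the authors' deposited table). RpS21, known in flies from mutants with overgrown blood-forming organs, read 1551 FPKM in Ras + EP3037 discs, 1506 in Ras + hsrω RNAi discs, 2115 in Ras discs and 1399 in control discs, so that Ras discs stood apart (log2 0.60 over control discs, p = 0.0281 in the authors' deposited table). None of these differences was called.

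RpL21, RpL15, RpL37A and RpL29, all of the large subunit, completed the members below an unadjusted p of 0.05 in Ras + hsrω RNAi against Ras discs, with RpS15Ab among the second copies. RpL21 read 2847 FPKM in Ras + EP3037 discs, 1936 in Ras + hsrω RNAi discs, 3357 in Ras discs and 2703 in control discs. The log2 fold changes of the 4 genes in that pair were -0.79, -0.71, -0.65 and -0.60, and none had a q in the authors' deposited table below 0.343. RpL3, which lies next to the catalytic centre of the ribosome, has the longest coding sequence of the 78 rows and did not follow its length class: it read 1132 FPKM in Ras + EP3037 discs, 1395 in Ras + hsrω RNAi discs, 2023 in Ras discs and 1576 in control discs. Its log2 fold change of -0.84 in Ras + EP3037 against Ras discs had p = 0.119 in the authors' deposited table, and its row also names snoRNA:Me18S-A425.

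RpL27A of the large subunit, which holds a snoRNA gene, was lower in Ras + hsrω RNAi and Ras discs than in the other groups. It read 999 FPKM in Ras + EP3037 discs, 767 in Ras + hsrω RNAi discs, 780 in Ras discs and 1067 in control discs. Over control discs its log2 fold change was -0.48 in Ras + hsrω RNAi discs (p = 0.0260, q = 0.587 in the authors' deposited table) and -0.45 in Ras discs (p = 0.0503, q = 0.804 in the authors' deposited table). RpS24 of the small subunit was highest in control discs, at 993 (EP3037), 1052 (RNAi), 945 (Ras) and 1121 (control) FPKM, with a log2 fold change of -0.25 in Ras against control discs (p = 0.278 in the authors' deposited table). RpL4, a large subunit protein whose gene overlaps other rows, was highest in the RNAi discs, at 815 (EP3037), 1035 (RNAi), 791 (Ras) and 772 (control) FPKM, with a log2 fold change of 0.42 in Ras + hsrω RNAi against control discs (p = 0.124 in the authors' deposited table). None of the 3 was called in any pair.

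**Figure D4:**
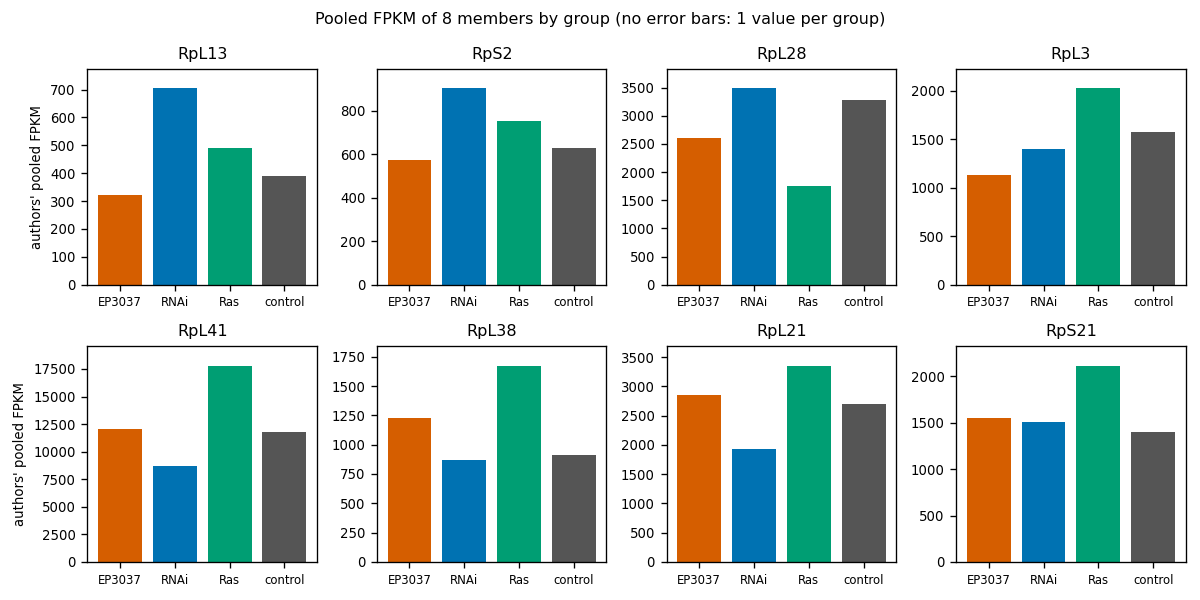
Pooled FPKM (vertical axis from 0, a separate scale for each gene) of 8 ribosomal protein genes in Ras + EP3037, Ras + hsrω RNAi, Ras and control discs, from left to right, with 1 value per group and so no error bars. RpL13 and RpS2 are highest in the RNAi discs, RpL28 is lowest in Ras discs, and RpL3, RpL41, RpL38, RpL21 and RpS21 are highest in Ras discs.

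The stalk proteins RpLP0, RpLP1 and RpLP2 form the lateral arm of the large subunit that recruits elongation factors. RpLP0 read 1405 FPKM in Ras + EP3037 discs, 1309 in Ras + hsrω RNAi discs, 1313 in Ras discs and 1386 in control discs. RpLP1 was as even, at 2794 (EP3037), 2529 (RNAi), 2568 (Ras) and 2799 (control) FPKM. RpLP2 was higher in Ras discs, at 3064 (EP3037), 2846 (RNAi), 3871 (Ras) and 2641 (control) FPKM, with a log2 fold change of 0.55 over control discs (p = 0.0933 in the authors' deposited table). RpLP1 and RpLP2 form dimers on the stalk, and their mRNAs had different group orders in these values.

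RpS27A and RpL40 are made as fusions to ubiquitin, and RpS30 as a fusion to a ubiquitin-like protein. RpS27A, whose row also names Ip259, read 3386 FPKM in Ras + EP3037 discs, 2803 in Ras + hsrω RNAi discs, 3778 in Ras discs and 3335 in control discs. RpS30 had the same order at 2030 (EP3037), 1823 (RNAi), 2230 (Ras) and 1966 (control) FPKM. RpL40 was highest in control discs, at 598 (EP3037), 666 (RNAi), 684 (Ras) and 767 (control) FPKM, and the log2 fold change of -0.36 in Ras + EP3037 against control discs was among the 3 lowest of that pair. None of the 3 fusion genes was called in any pair.

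RpL5 and RpL11 enter the ribosome together with the 5S ribosomal RNA, and in mammals the free complex binds the p53 regulator Mdm2. RpL5 read 1084 FPKM in Ras + EP3037 discs, 920 in Ras + hsrω RNAi discs, 1167 in Ras discs and 1250 in control discs. RpL11 read 1442 (EP3037), 1205 (RNAi), 1623 (Ras) and 1289 (control) FPKM. Both were lowest in the RNAi discs, while control discs were the highest group for RpL5 and Ras discs for RpL11, and neither was called.

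RpS6, the substrate of S6 kinase below TOR, read 2075 FPKM in Ras + EP3037 discs, 1962 in Ras + hsrω RNAi discs, 1917 in Ras discs and 2158 in control discs, a ratio of 1.13 between the highest and the lowest group. RpS12, needed in flies for cells with Minute mutations to be recognised in cell competition, read 1501 (EP3037), 1250 (RNAi), 1338 (Ras) and 1411 (control) FPKM. The transcription factor Xrp1, which acts after RpS12 in that pathway, read 103 (EP3037), 135 (RNAi), 102 (Ras) and 101 (control) FPKM, with a log2 fold change of 0.42 in Ras + hsrω RNAi against control discs (p = 0.0412, q = 0.742 in the authors' deposited table).

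The 14 second copies ranged from shares close to that of the main copy to none at all. RpS14b, which lies next to RpS14a on the X and encodes the same protein, held 36.5% of the pair's FPKM in Ras + EP3037 discs, 40.2% in Ras + hsrω RNAi discs, 37.0% in Ras discs and 38.2% in control discs. RpL34a held 15.6% (EP3037), 14.3% (RNAi), 14.0% (Ras) and 14.8% (control) beside RpL34b, and RpS15Ab 4.77% (EP3037), 4.65% (RNAi), 4.69% (Ras) and 4.87% (control) beside RpS15Aa. Reads of such near-identical copies may be divided between them by the counting, so these shares are uncertain. Both copies of RpS15A were lowest in the RNAi discs while the share of the second lay between 4.65% and 4.87%.

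RpL24-like, RpL7-like and RpLP0-like resemble yeast assembly factors that hold the place of the ribosomal protein in the maturing large subunit. They read between 34.1 and 140 FPKM. RpL24-like stood at 125 FPKM in Ras + EP3037 discs, 112 in Ras + hsrω RNAi discs, 140 in Ras discs and 125 in control discs. RpL7-like stood at 119 (EP3037), 116 (RNAi), 122 (Ras) and 128 (control) FPKM, and RpLP0-like at 43.3 (EP3037), 34.1 (RNAi), 49.4 (Ras) and 39.3 (control) FPKM. All 3 were far below the ribosomal proteins they resemble, with shares of 2.54% to 9.23% of the sum of both, and none was called.

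The other copies were at or below 4.24 FPKM in every group. RpL22-like and RpS5b are known in flies for high expression in the germline. RpS5b read 2.85 FPKM in Ras + EP3037 discs, 2.47 in Ras + hsrω RNAi discs, 2.43 in Ras discs and 0.997 in control discs, where RpS5a read 1928 (EP3037), 1636 (RNAi), 1982 (Ras) and 1867 (control) FPKM. Its log2 fold change over control discs was 1.52 in Ras + EP3037 discs, 1.31 in Ras + hsrω RNAi discs and 1.28 in Ras discs (p = 0.0146, 0.0214 and 0.0340 in the authors' deposited table). Each was the highest of the 90 members in its pair, and none was called. RpS19b read 4.24 (EP3037), 2.82 (RNAi), 3.71 (Ras) and 2.16 (control) FPKM, and RpL22-like 1.16 (EP3037), 0.874 (RNAi), 0.728 (Ras) and 0.720 (control) FPKM. RpS28a, RpS28-like and RpS10a were at or below 2.24 FPKM in every group, and RpL10Aa at or below 0.230 FPKM. RpL37b was listed at 0 in every group. RpL10Aa and RpL37b were the 2 members the authors did not test.

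Many members share their locus with other genes. snoRNA genes lie inside 28 of the 92 genes, 74 in all, and 45 members overlap another measured row, 28 of them an antisense gene. Use of strand in the counting is not given in the sources used here, so reads of such neighbours cannot be told apart. The 28 members with a snoRNA inside had a median log2 fold change of 0.03 in Ras against control discs, and the other 62 tested members 0.13. In Ras + hsrω RNAi against Ras discs the medians were -0.10 and -0.23. Members without a snoRNA leaned further in these pairs and in Ras + EP3037 against Ras discs (-0.02 and -0.13). The medians were close in Ras + hsrω RNAi against control (-0.13 and -0.11) and Ras + EP3037 against control discs (0.03 and 0.02). They were also close in Ras + EP3037 against Ras + hsrω RNAi discs (0.15 and 0.16). Members with a snoRNA had longer transcripts, with a median of 1012 against 769.5 nt. Less the trend with transcript length, the medians with and without a snoRNA still differed, at -0.08 and -0.006 in Ras against control discs. They were 0.06 and -0.03 both in Ras + hsrω RNAi against Ras discs and in Ras + EP3037 against Ras discs. None of these differences was tested.

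The symbols of 2 more ribosomal components fall outside the rule. The gene sta (stubarista, the fly RpSA) read 2644 FPKM in Ras + EP3037 discs, 2698 in Ras + hsrω RNAi discs, 2464 in Ras discs and 2813 in control discs. Rack1, a scaffold on the small subunit, read 908 (EP3037), 1067 (RNAi), 851 (Ras) and 842 (control) FPKM. Neither was called.

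Genes that act with the ribosome leaned otherwise in part. Of 17 initiation factors, which load the ribosome on mRNA, 16 read lower in Ras than in control discs (median -0.12) where most ribosomal proteins read higher, and 15 read lower in Ras + hsrω RNAi than in control discs (median -0.14). In Ras + EP3037 against Ras discs 15 of them read higher (median 0.10). eIF-4a, the helicase among them, read 1690 FPKM in Ras + EP3037 discs, 1457 in Ras + hsrω RNAi discs, 1470 in Ras discs and 1727 in control discs. Of 10 elongation and termination genes 5 read higher and 5 lower in Ras than in control discs (median 0.01), and of 25 ribosome biogenesis genes 13 read higher and 12 lower (median 0.03). None of these genes, nor of 4 genes of RNA polymerase I, was called by Cuffdiff in any pair, and at most 2 of a list had an unadjusted p at or below 0.05 in a pair in the authors' deposited table.

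Among 20 growth regulators only Thor was called, which is 5% of the list in each of 2 pairs. Of all tested rows 0.786% were called in Ras + EP3037 against Ras discs and 1.74% in Ras + EP3037 against Ras + hsrω RNAi discs. Thor encodes the translational repressor 4E-BP, which binds the cap-binding protein eIF4E when TOR is inactive. It read 4.02 FPKM in Ras + EP3037 discs, 13.0 in Ras + hsrω RNAi discs, 17.4 in Ras discs and 8.85 in control discs. It fell by 2.11 on the log2 scale in Ras + EP3037 against Ras discs (q = 0.00789 in the authors' deposited table) and by 1.69 against Ras + hsrω RNAi discs (q = 0.0140 in the authors' deposited table). The row of dm, the fly Myc that activates ribosomal protein and biogenesis genes, also names CR44999 and read 113 (EP3037), 115 (RNAi), 112 (Ras) and 131 (control) FPKM.

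Summed levels of markers of other tissues differed between groups, though no glial marker was called in any pair. Summed levels of 10 haemocyte markers were 122 FPKM in Ras + EP3037 discs, 196 in Ras + hsrω RNAi discs, 85.3 in Ras discs and 98.5 in control discs, and 7 fat body markers summed to 24.0 (EP3037), 9.83 (RNAi), 19.1 (Ras) and 53.0 (control) FPKM. Of the haemocyte markers 8 read lower in Ras than in control discs (median log2 fold change -0.75), 2 of them called, where 0.773% of all rows were called. In Ras + hsrω RNAi against control discs 9 read higher and 1 lower, with 3 called higher and 1 called lower, where 1.72% of all rows were called. Muscle markers (8 genes) summed to 103 (EP3037), 72.7 (RNAi), 102 (Ras) and 135 (control) FPKM, salivary gland markers (8 genes, with ng1 at 0 in the RNAi discs) to 21.1 (EP3037), 8.01 (RNAi), 18.5 (Ras) and 24.6 (control) FPKM, and glial markers (6 genes) to 224 (EP3037), 208 (RNAi), 200 (Ras) and 199 (control) FPKM. Their part in the lean of the ribosomal protein genes was not tested. roX2, a dosage compensation RNA made in males, read 247 FPKM in Ras + EP3037 discs, 175 in Ras + hsrω RNAi discs, 517 in Ras discs and 91.5 in control discs. Its part was not tested either.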

How the data were processed

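Total RNA libraries (ribosomal RNA removed) of 12 samples in 4 groups of 3 were used, grouped by genotype as the labels give it. Per the submitters' processing notes the authors used TopHat, Bowtie, Cufflinks, Cuffdiff 2.1.1 and the build dm6. Not given in the sources used here are other tool versions, filters and strand use. The authors deposited 6 pairwise tables of 15903 or 15904 rows that give each gene a single pooled FPKM per group, so no replicate values, SD or depth were available. The RNAi group entered Cuffdiff with 4 inputs for 3 samples, per the file headers. The authors' p-value, q-value and test statistic, a score, stand beside it. Log2 fold changes were computed from FPKM and differed from the deposited log2 column by at most 1.33e-05. Benjamini-Hochberg adjustment of all 65927 deposited p-values gave the deposited q-values to within 1.56e-05.

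The annotation of Ensembl release 115 was joined by symbol, synonym or locus (15585 of 15904, and all 92 members), which gave coordinates, coding and longest transcript lengths. A lowess trend (fraction 0.3) of log2 fold change on log transcript length or mean FPKM was fitted on all tested rows. Scripts were tested on simulated data. Python 3.11.15, pandas 2.3.3, numpy 2.4.6, statsmodels 0.14.6 and matplotlib 3.10.9 were used. Members named in the results were those called, the 3 highest and 3 lowest in a pair at 1 FPKM or more, the 6 most and least abundant, second copies, stalk proteins, ubiquitin fusions, RpL5, RpL11, RpS6, RpS12 and RpL41. RpL13A, RpL34b, RpS7, RpL32, RpL15, RpL37A, RpS13, RpL22 and RpL23A were in part added after their values were seen. Members, gene lists and rules were chosen with earlier results of these data known. Alternatives were other thresholds, pseudocounts, filters, row types, trends and centring.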

Additional observations from a re-analysis of the deposited data

How the results depend on the processing

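Of 90 alternatives to the counts of called members, the median fold changes and the shares of FPKM, 67 kept the direction and the size. With an unadjusted p at or below 0.05 the members counted were 4 in Ras against control, 5 in Ras + hsrω RNAi against control, 2 in Ras + EP3037 against control, 7 in Ras + hsrω RNAi against Ras, 1 in Ras + EP3037 against Ras and 7 in Ras + EP3037 against Ras + hsrω RNAi discs. Rows of a single gene left 0 calls in Ras against control discs, since RpL28 shares its row with snoRNAs, and a q threshold of 0.01 left 0 in Ras + hsrω RNAi against control discs. Less the trend with transcript length, the median log2 fold changes in the same 6 pairs were -0.016, -0.027, -0.017, -0.0090, -0.022 and -0.014. Less the trend with mean FPKM they were -0.076 in Ras against control, -0.023 in Ras + EP3037 against control, 0.024 in Ras + hsrω RNAi against Ras, 0.042 in Ras + EP3037 against Ras and 0.079 in Ras + EP3037 against Ras + hsrω RNAi discs, a change of sign in all of these but the last. The members are themselves among the abundant rows on which this second trend was fitted. Over protein-coding rows only, the shares of FPKM were 34.8% in Ras + EP3037, 32.6% in Ras + hsrω RNAi, 36.1% in Ras and 34.5% in control discs. Without rows spanning under 200 nt they were 20.7% (EP3037), 18.9% (RNAi), 19.2% (Ras) and 20.4% (control), with the RNAi discs lowest. With rows of a single gene only they were 17.9% (EP3037), 16.1% (RNAi), 15.7% (Ras) and 17.6% (control), with Ras discs lowest. No paired analysis was possible because the authors deposited 1 pooled value per group, and for the same reason no sample could be left out.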

Other observations

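The 20 tested members on chromosome arm 2R leaned further than the members as a whole. In Ras against control discs 17 of them read higher, with a median log2 fold change of 0.28, and in Ras + hsrω RNAi against Ras discs 17 read lower, with a median of -0.44. In Ras + EP3037 against Ras + hsrω RNAi discs 18 read higher, with a median of 0.26. RpL41, RpL38, RpL39 and RpL29, among the shortest members by coding length, all lie on this arm. Less the trend with transcript length, the medians of the arm in these pairs were 0.12, -0.18 and 0.07. The arm was singled out after its values were seen, and no test of it was made.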
